A study of Mus musculus with 2 samples.

Results

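The cells described are the immune cells in the library of activated satellite cells, a library sorted for muscle stem cells. They were chosen by measured values. A cell had to show at least 500 detected genes, at most 10% mitochondrial UMIs, under 5% of its UMIs from 10 contractile genes, and at least 0.2% of its UMIs from Tyrobp, Fcer1g, Laptm5, Cd52, Coro1a and Cd53 together. A UMI is a unique molecular identifier and stands for 1 captured transcript. The rule selected 106 cells of the 1468 that passed the filters in that library, of 1650 deposited there and 2416 in the series. They made up 7.22% of the kept cells (exact Clopper-Pearson 95% interval 5.95 to 8.67). Because these values chose the members, they are given as a description, with no test.

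The study profiled single satellite cells to follow polyamine genes during their activation. Both libraries came from tibialis anterior (TA) muscle of Pax7 CreERT2/+;Rosa26 mTmG/+ mice aged 8 weeks. In these mice a Cre that tamoxifen activates is expressed from Pax7, the satellite cell transcription factor, and switches on a membrane reporter by which the cells can be sorted. QSC denotes cells of uninjured muscle, and ASC denotes cells taken 1.5 days after injury with cardiotoxin (CTX), a venom protein that destroys muscle fibres. Each library pooled the sorted cells of several mice, and each group had 1 library, so injury and library cannot be told apart. The reporter transcripts are not among the counted features, so whether the immune cells carried the reporter was not examined. No p-value was computed, and every interval covers counting error only.

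Sterile muscle injury draws blood cells into the tissue in an order that is well described. Neutrophils arrive early and release chemokines, Ly6C-high monocytes follow, and these mature into macrophages that first clear debris and later support repair. Uninjured muscle already holds resident macrophages, known by complement C1q, the mannose receptor and MHC class II genes.

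**Figure D1:**
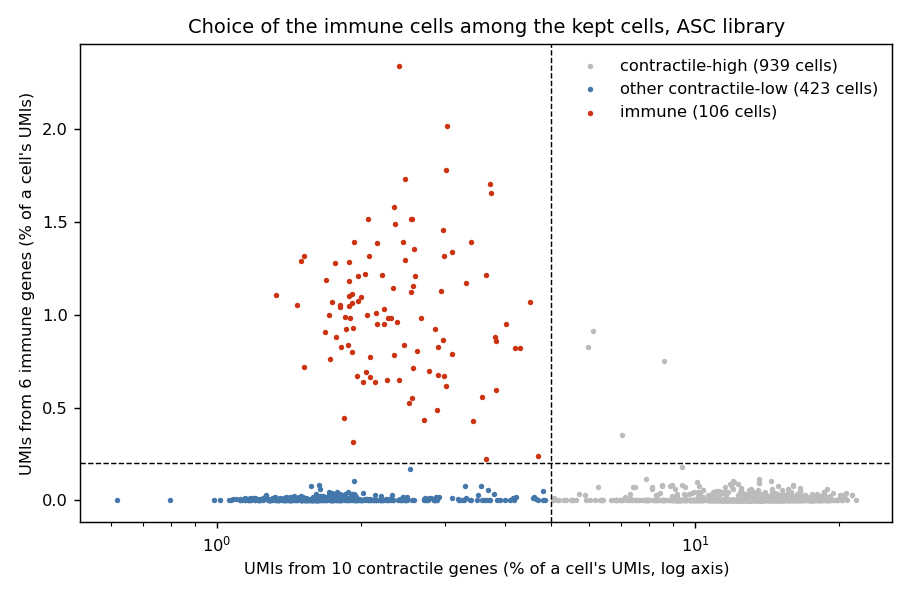
Each point is 1 kept cell of the ASC library, with its share of UMIs from 10 contractile genes on the x axis (log scale) and from 6 immune genes on the y axis. Dashed lines mark the limits of 5% and 0.2%. The 106 immune cells lie between 0.221% and 2.34% on the y axis, and 4 contractile-high cells also lie above the immune limit.

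The immune share that chose the cells had a median of 0.993% and ran from 0.221% to 2.34%. The 5 lowest members lay between 0.221% and 0.435%, and the 5 highest non-members among contractile-low cells between 0.0787% and 0.169%. A further 4 contractile-high cells met the immune share, at 0.351% to 0.911%, as did 14 cells that failed the quality filters. The members held 573456 UMIs, with a median of 5449 UMIs and 1769 genes a cell, and 1.23% mitochondrial UMIs. The other 423 contractile-low cells, mostly muscle cells, had a median of 8336 UMIs. The libraries shared 4 barcode sequences, and 0 of these were in immune cells of either library.

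The markers Lyz2, Plac8, Ly6c2 and S100a8 were given with the rule. They were chosen with earlier results of these data known, so their values describe the cells and do not test the label. Tyrobp, another marker given for these cells, is 1 of the 6 genes of the rule, so its values only describe the choice. After each cell was thinned to 1200 UMIs, which left out 6 of the 106 cells, Tyrobp (the adaptor DAP12 of myeloid receptors) was found in 92 of 100 immune cells. It was found in 12 of 418 other contractile-low cells (2.87%). Without thinning, the shares were 97.2% and 22.9%. Lyz2, the macrophage and monocyte lysozyme, was found in 74 of 100 thinned immune cells against 5.02% of the other cells (78.3% and 39.5% unthinned). Ly6c2, a surface antigen of inflammatory monocytes, was found in 67 of 100 against 1.67% (70.8% and 23.6% unthinned). Plac8, also abundant in these monocytes, was found in 62 of 100 against 1.67% (72.6% and 12.1% unthinned). S100a8, a calcium-binding alarmin of neutrophils, was found in 17 of 100 against 2.39% (29.2% and 11.6% unthinned). The 4 markers outside the rule were thus found in a larger share of members than of the other cells at equal depth, S100a8 in a minority of the members.

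In the summed counts of the immune cells, the most abundant genes outside mitochondria and ribosomes were the cytoskeletal genes Actb (19213 CPM) and Tmsb4x (13265 CPM). CPM denotes UMIs per 1000000 UMIs of the summed cells. The ferritin genes Ftl1 (11472 CPM) and Fth1 (10962 CPM) came next, then Cxcl2, a chemokine that recruits neutrophils (10466 CPM, Poisson 95% interval 10203 to 10735), and Lyz2 (10447 CPM). Acta1, Tnnc2 and Mylpf, which encode fibre proteins, were also among the first 15. Contractile genes took a median of 2.34% of an immune cell's UMIs (1.33% to 4.70%) against 1.66% in the other contractile-low cells. Whether this is free RNA from broken fibres was not tested.

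The immune cells were not uniform. The classes were cut from 2 scores, so they are ranges and not cell types. Cells with at least 1% of UMIs from S100a8 and S100a9 are called neutrophil-like and numbered 13 (12.3% of 106, 6.69 to 20.1). Of the others, 5 cells with at least 0.2% from C1qa, C1qb and C1qc are called C1q-high (4.72%, 1.55 to 10.7), and 88 are called remaining (83.0%). The cuts fell in sparse regions. The neutrophil-like cells held 1.70% to 14.97% S100a8 plus S100a9, and 1 other immune cell held 0.717%. The 5 C1q-high cells held 0.470% to 0.972% C1q, 1 remaining cell held 0.105%, and 75 remaining cells had 0 C1q UMIs.

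**Figure D2:**
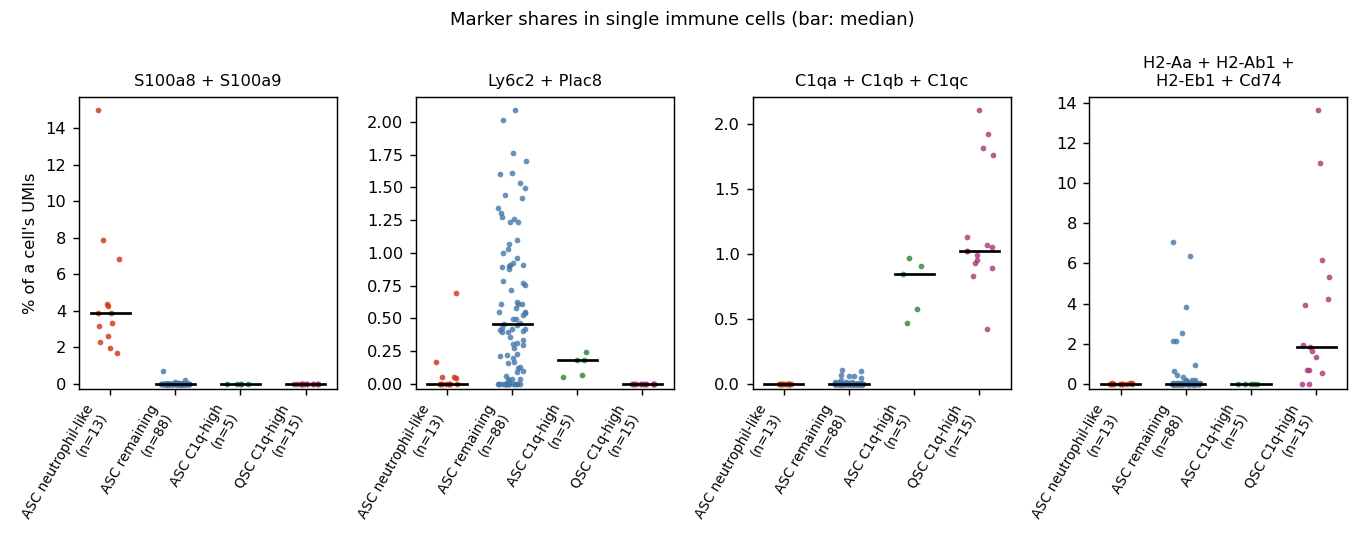
Each point is 1 immune cell, by class and library, and each panel gives the share of its UMIs from the genes named above it. Bars are medians. S100a8 plus S100a9 lies at 1.70% or more in the 13 ASC neutrophil-like cells, and Ly6c2 plus Plac8 is at 0 in all 15 QSC cells.

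The 88 remaining cells were mainly monocyte-like in their markers. Ly6c2 plus Plac8 took from 0 to 2.09% of a cell's UMIs, with a median of 0.454%. With the limits for MHC class II and lymphoid genes given further on, 12 of the 88 were set aside, and 59 of the other 76 held at least 0.1%. These sets were drawn after the values were seen. In the 59 cells summed, Ly6c2 stood at 4119 CPM and Plac8 at 4334 CPM. Ccr2, the receptor by which monocytes leave the bone marrow, stood at 690 CPM (609 to 778) and had a UMI in 53 of 59. Lyz2 stood at 13348 CPM, and its share of a cell's UMIs ran from 0 to 3.79%. The other 17 cells held under 0.1% Ly6c2 plus Plac8 and were mostly shallow, with a median of 2067 UMIs (904 to 13510). Lyz2 stood at 10738 CPM in them, but 2 deep cells, of 13510 and 7594 UMIs, held 531 of its 614 UMIs. The other 15 stood at 2301 CPM. In 7 of the 17 there was no Lyz2 UMI.

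Spp1 (osteopontin, a secreted matrix protein of macrophages) varied strongly between single cells. In the 88 remaining cells it had a median of 0.0111% of UMIs and a highest value of 4.74%. Of the 106 immune cells, 53 had an Spp1 UMI, and so had 37.6% of the other contractile-low cells. At equal depth these shares were 33 of 100 and 15.6%, beside 5.02% for Lyz2 and 1.67% for Ly6c2 in the same other cells. The part of free RNA in these shares was not tested. Arg1, an arginase of wound macrophages, had 19 UMIs in all immune cells and 0 in the 423 other contractile-low cells.

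The neutrophil-like cells had little RNA. They held a median of 1850 UMIs (1138 to 2925) and 781 genes, and 0.413% mitochondrial UMIs. Every one of the 13 had S100a8, at 0.729% to 7.76% of its UMIs with a median of 2.16%, and 12 had S100a9 (0 to 7.21%, median 1.47%). The gene S100a8 lies on chromosome 3 at 90668978 to 90670035 and S100a9 at 90692632 to 90695721 (GRCm38, GENCODE M21), so they are neighbours. All 13 also had Il1b, a cytokine released by activated neutrophils and monocytes, at 0.201% to 3.36% of UMIs. Cxcl2 took 1.48% to 14.0% of their UMIs. From 4 to 15 of the 18 further neutrophil genes listed were present in each cell, with a median of 9, against a median of 3 (0 to 7) in the other immune cells.

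Compared with the other 93 immune cells, the 13 neutrophil-like cells carried more of 10 listed neutrophil genes that had not been used to choose them. A gene counts as higher or lower where its log2 ratio, with 0.5 UMIs added, is at least 1 in size and its 95% interval lies on that side of 0. Of 3229 genes with at least 20 UMIs over both groups, 6.32% were higher (204 genes) and 7.28% lower (235 genes), with a median log2 ratio of -0.25. With each cell weighted equally, 398 genes were higher and 1383 lower, and with the median set to 0, 254 were higher and 167 lower. Of the 18 listed neutrophil genes, 10 had enough UMIs, and 10 were higher and 0 lower, with a median log2 ratio of 4.05. The filter favoured this count. Csf3r passed it only through the neutrophil-like cells (18 UMIs against 7), and Mmp8, with 0 UMIs there, fell under it. The count is thus a description and no test. Csf3r, the receptor for the neutrophil growth factor G-CSF, stood at 746 against 12.7 CPM (log2 ratio 5.87, 4.54 to 7.37). G0s2, a lipase inhibitor abundant in neutrophils, stood at 1865 against 52.8 CPM (log2 ratio 5.14), and at 943 CPM without the cell that held 25 of its 45 UMIs. Il1r2, the decoy receptor for interleukin 1, stood at 1865 against 63.7 CPM (log2 ratio 4.87).

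Some neutrophil genes were scarce. Cxcr2, the receptor for Cxcl2, had 6 UMIs in the neutrophil-like cells and 0 in the other immune cells, at least 45.5-fold higher. Retnlg had 7 and 0 UMIs, but 6 of the 7 lay in 1 cell. Ly6g, the antigen commonly used to sort neutrophils, had 0 UMIs, which allows up to 153 CPM. Mmp8, a neutrophil collagenase, had 0 UMIs in the neutrophil-like cells and 18 in the others. At 24128 UMIs in all, a gene with 3 UMIs stands at 124 CPM, so low genes were not measurable.

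Inflammatory genes were high in the neutrophil-like cells. Of the 18 listed, 14 had enough UMIs, and 11 were higher and 0 lower (median log2 ratio 1.92). Il1b stood at 18112 against 1453 CPM (log2 ratio 3.64, 3.47 to 3.81). Il1a stood at 2238 against 51.0 CPM, and Il1rn, the natural antagonist of both cytokines, at 3191 against 218 CPM. Il1f9, another member of the interleukin 1 family, had 20 UMIs against 0, at least 152-fold higher. Of 14 chemokine genes with enough UMIs, 4 were higher and 6 lower. Cxcl3 lost its call without the cell that held 7 of its 11 UMIs (log2 ratio 0.85, -1.07 to 2.29). Those higher were Cxcl2 (64241 against 8104 CPM), Cxcl3, Ccl3 and Ccl4, and those lower were Ccl2, Ccl5, Ccl6, Ccl7, Ccl9 and Pf4. The neutrophil-like cells thus carried more of some chemokine transcripts and less of others.

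Macrophage and monocyte genes were low in the neutrophil-like cells. Of 12 general macrophage genes with enough UMIs, 0 were higher and 8 lower, and of 14 monocyte genes 1 was higher and 7 lower. Lyz2 stood at 663 against 10877 CPM (log2 ratio -4.04). Ctss, a lysosomal protease used in antigen presentation, had 0 against 794 UMIs, at least 11.6-fold lower. Cd14, a receptor for bacterial lipopolysaccharide, was the monocyte gene that was higher, at 5637 against 947 CPM (log2 ratio 2.57, 2.29 to 2.85).

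**Figure D3:**
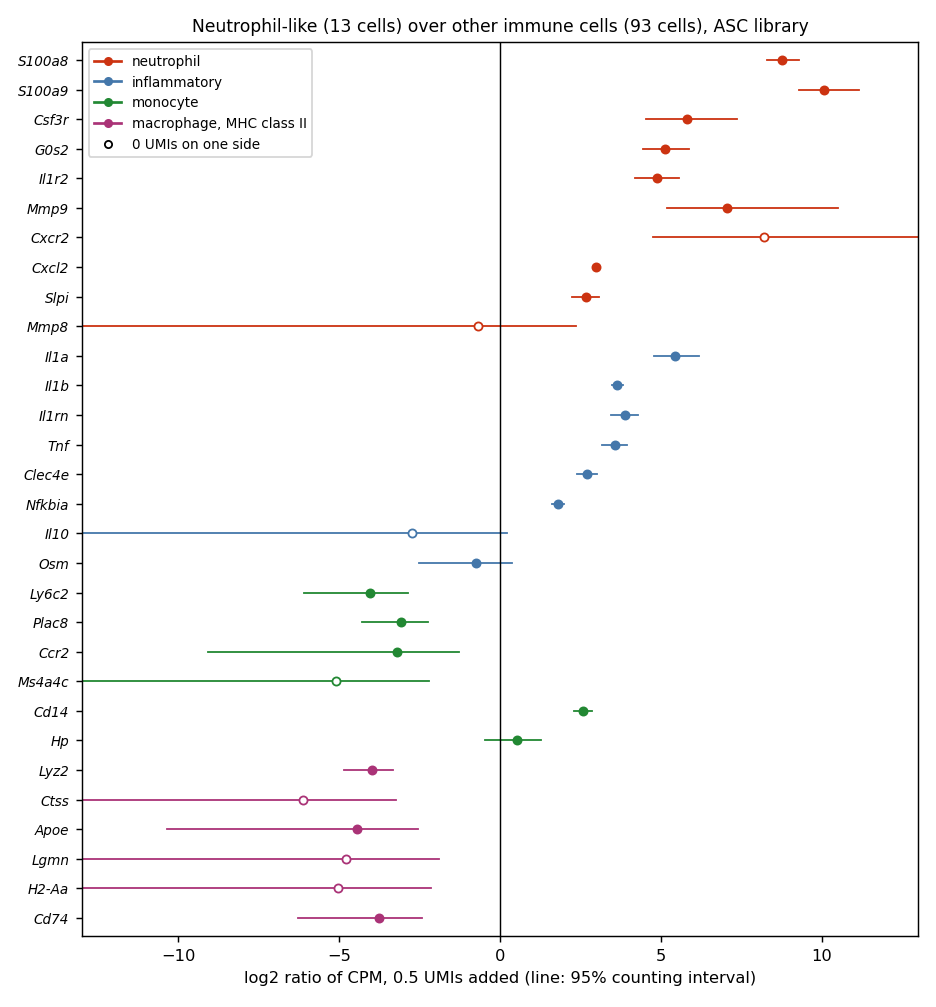
Points are log2 ratios of CPM in 13 neutrophil-like over 93 other immune cells of the ASC library, with 0.5 UMIs added, and lines are 95% counting intervals cut at the axis limits. Open points have 0 UMIs on one side. S100a8 and S100a9 chose the groups, and genes to the right include Csf3r at 5.87 on the log2 scale without added counts.

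Smaller sets lay within the remaining cells. In 6 of the 88, MHC class II genes (H2-Aa, H2-Ab1, H2-Eb1 and Cd74) took 2.13% to 7.06% of the UMIs. All 6 also had Plac8 UMIs, at 2568 CPM, and Ly6c2 UMIs, at 1067 CPM, or 331 CPM without the cell that held 44 of the 59. Lyz2 stood at 633 CPM. Cd209a, a lectin of monocyte-derived dendritic cells, had 17 UMIs, of which 16 were in 1 cell. Xcr1, Clec9a, Siglech and Zbtb46, which mark other dendritic cells, had 0 UMIs in these 55297 UMIs. Another 6 cells held 0.377% to 1.78% of UMIs from lymphoid genes. Nkg7, a granule protein of cytotoxic lymphocytes, was present in 6 of 6 and Gzma, a granzyme, in 5 of 6, with 100 UMIs in all. The chemokine gene Ccl5 was present in 6 of 6 (11692 CPM). Ncr1, an activating receptor of natural killer cells, had a UMI in 4 of them, and Cd3e, Cd3d and Cd3g of the T cell receptor complex had UMIs in 1 of the remaining cells of this set, which had 0 Gzma UMIs.

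**Figure D4:**
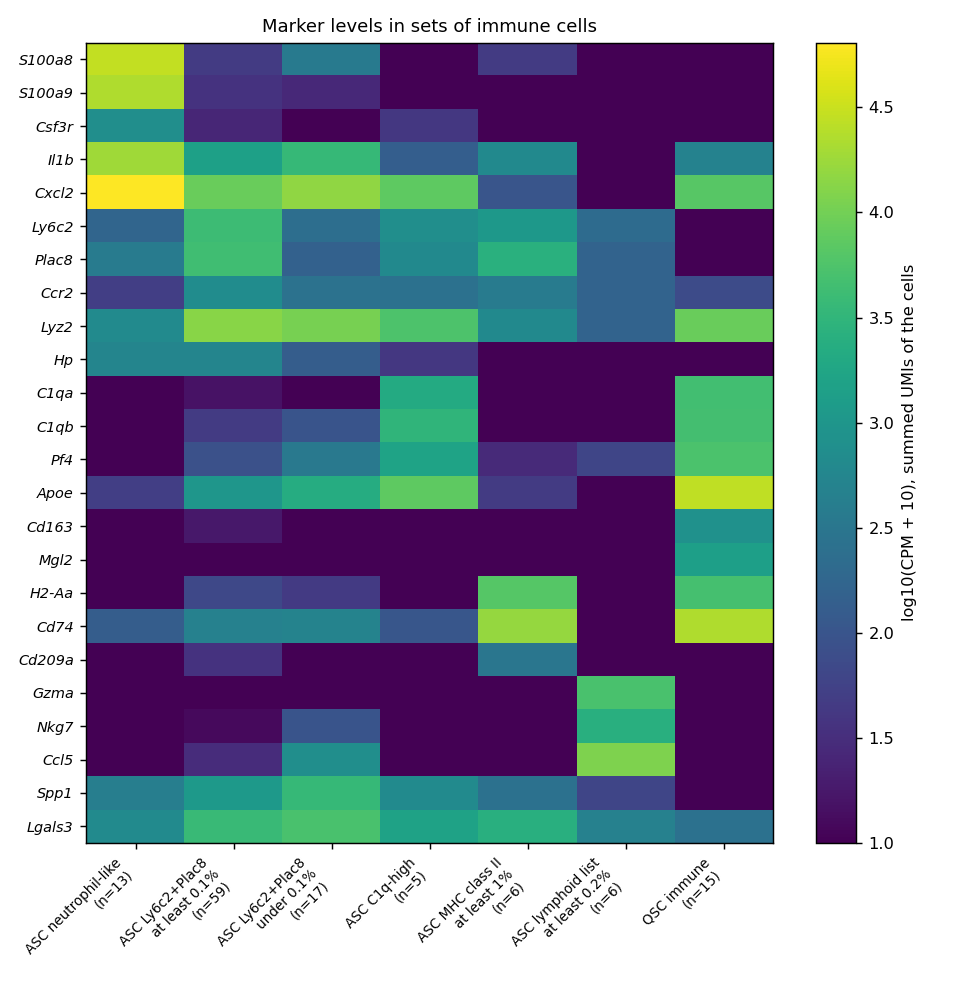
Colours give log10(CPM + 10) of summed UMIs for 24 marker genes (rows) in 6 sets of ASC immune cells and in the QSC immune cells (columns, with the number of cells). In the ASC C1q-high set C1qa stands at 2083 CPM against 4506 in the QSC cells and Pf4 at 1610 against 5268, with 39 of its 51 UMIs in 1 cell, while Cd163 and Mgl2 are at 0.

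Unsupervised clustering of the 106 cells by 1000 variable genes gave 4 clusters, or 3 and 6 at other resolutions. The first, 55 cells, led by Osm, Lyz2, Chil3, Hp and Thbs1, had 4 monocyte markers among its 10 leading genes and is called monocyte-like. The second held 11 of the 13 neutrophil-like cells among its 18 cells and was led by Il1f9, S100a8, Il1a, S100a9 and Hcar2, so it is neutrophil-like. The third, 14 cells, held all 5 C1q-high cells and was led by C1qa, C1qc, C1qb, Pf4 and Ms4a7. The 5 C1q-high cells held 66 of its 66 C1qa UMIs, 47 of its 49 C1qc UMIs and 98 of its 103 C1qb UMIs. Of 18 listed resident macrophage genes, 11 were detected in the cluster, and all 11 were higher there than in the other immune cells. The list took 0.513% of the cluster's UMIs against 0.0541%. The 5 C1q-high cells had 0 UMIs of Cd163, Mgl2 and H2-Aa, however, and 9 of the 14 cells were not C1q-high. The markers thus went both ways, and the cluster is left unnamed. The fourth, 19 cells, was led by Gzma, H2-Aa, H2-Eb1, H2-Ab1 and Ccl5. It held the 6 cells with MHC class II genes and the 6 with lymphoid genes, and so is left unnamed.

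Against the other contractile-low cells of the same library, the rule itself used immune genes, so this contrast, the cell cycle and polyamine genes included, is a description with no test. Of 9976 genes with at least 20 UMIs, 14.7% were higher (1468 genes) and 22.9% lower (2283 genes), and the median log2 ratio was -0.39. With that median set to 0, 1928 genes were higher and 1442 lower. All 14 monocyte genes with enough UMIs were higher (median log2 ratio 7.45), as were 13 of 14 inflammatory genes and 13 of 14 chemokine genes. The highest ratios were those of Cybb, the catalytic subunit of the phagocyte oxidase (193 against 2 UMIs, log2 ratio 9.80, 7.93 to 12.86), and Ccr1, a chemokine receptor (171 against 2 UMIs, log2 ratio 9.63). All 15 satellite cell and muscle genes were lower (median log2 ratio -3.50). Myod1, the myoblast transcription factor, had 9 UMIs in the immune cells and 2204 in the others (log2 ratio -4.72). Haemoglobin genes were also among the lowest, but 1 of the other cells took 81.3% of its UMIs from them. Without the 2 cells over 1% haemoglobin, the log2 ratio of Hba-a1 moved from -4.93 to 0.04.

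Summed over the immune cells, cell cycle genes were low beside the other contractile-low cells. Of 20 S phase genes 18 were lower and 0 higher, and of 20 G2/M genes 17 were lower and 0 higher. Mki67 had 3 UMIs in the 106 immune cells (5.23 against 26.9 CPM, log2 ratio -2.36). Mcm2, a subunit of the replicative helicase, also had 3 UMIs (5.23 against 70.4 CPM, log2 ratio -3.75). Single cells differed, and G2/M genes took 0.571% of the UMIs in 1 immune cell and 0.640% in another. In the fourth cluster G2/M genes took 0.119% of UMIs, against 0.0280% in the other immune cells. The cell with 0.571% lay in this cluster and held 14709 UMIs, where the cluster median was 4730. It thus weighs heavily in the cluster value, and the share without it was not computed.

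The polyamine and Eif5a genes, which the study concerned, differed in direction. Of 15 with enough UMIs, 3 were higher and 5 lower, where 14.7% and 22.9% of all genes compared were. With the median of all genes set to 0, the counts were 5 higher and 2 lower, so they describe no shift of the list. Among the biosynthetic genes, Amd1, whose enzyme decarboxylates S-adenosylmethionine, stood near equality (0.04 on the log2 scale with 0.5 UMIs added). Odc1, Srm and Sms were lower. Odc1, which makes putrescine, stood at 82.0 against 296 CPM (log2 ratio -1.85, -2.30 to -1.43). Srm, spermidine synthase, stood at 47.1 against 273 CPM (-2.54), and Sms, spermine synthase, at 52.3 against 137 CPM (-1.38). Eif5a, the translation factor that spermidine modifies, stood at 804 against 2020 CPM (log2 ratio -1.33, -1.47 to -1.19). With the median of all genes set to 0, Eif5a (-0.94) and Sms (-0.97) no longer reached the limit of 1, and Odc1 and Srm still did. Of the catabolic genes, higher levels were found for Sat1, the acetyltransferase, at 656 against 73.4 CPM (log2 ratio 3.16, 2.95 to 3.37) and Smox, spermine oxidase, at 83.7 against 7.71 CPM (3.44). The third gene of this list called higher was Arg2, at 6.91 on the log2 scale with 0.5 UMIs added. Between the immune cells of the 2 libraries, 0 of 13 such genes were higher or lower, where 6.78% and 6.72% of all genes compared were. With each cell weighted equally 5 of the 13 were higher, but so were 1205 of all 3362 genes compared. These counts describe no shift of the list.

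The immune cells of uninjured muscle were few. The same rule found 15 in the QSC library, of 516 kept cells (2.91%, 1.64 to 4.75), with a median of 2036 UMIs and 3.87% mitochondrial UMIs. All 15 were C1q-high (0.424% to 2.11%) and 0 were neutrophil-like, which allows a share of up to 21.8%. In the ASC library 5 of 106 were C1q-high. MHC class II genes took at least 1% of UMIs in 10 of the 15 QSC cells and in 6 of the 106 ASC cells.

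Summed over cells, genes of resident macrophages were lower in the ASC immune cells. Of 3362 genes with at least 20 UMIs, 6.78% were higher (228 genes) and 6.72% lower (226 genes), and the median log2 ratio was 0.09. With each cell weighted equally, 1205 genes were higher and 492 lower. All 14 resident macrophage genes with enough UMIs were lower, with a median log2 ratio of -4.58. Some of them passed the filter only through the QSC cells, as Mgl2 and Cd163 (3 and 26 UMIs) did. All 15 QSC cells were C1q-high, so the count describes the make-up of the groups and is no test. C1qa stood at 119 against 4506 CPM (log2 ratio -5.25, -5.69 to -4.82). Cd163, the scavenger receptor for haemoglobin, stood at 5.23 against 825 CPM (log2 ratio -7.30, -9.67 to -5.60). Mgl2, a lectin of tissue macrophages, had 0 against 44 UMIs, at least 267-fold lower. Mgl2 also had 131 UMIs in 105 of the 423 other contractile-low cells of the ASC library, and why was not tested. Apoe, a lipid carrier of macrophages, stood at 1304 against 27800 CPM (log2 ratio -4.41). Of 7 MHC class II and dendritic genes 5 were lower and 0 higher, Cd74 at 1899 against 22214 CPM (log2 ratio -3.55).

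Monocyte genes were mostly higher in the ASC immune cells. Of 14 with enough UMIs, 8 were higher and 2 lower, and the median log2 ratio was 2.85. Plac8 had 1854 UMIs against 0 (at least 34.0-fold higher) and Ly6c2 had 1693 against 0 (at least 31.0-fold higher). Ly6c2 has a close neighbour and paralog, Ly6c1, so its counts are less certain. Ccr2 stood at 548 against 63.5 CPM (2 UMIs, log2 ratio 3.11, 1.24 to 6.16). Cd14 (log2 ratio -1.11) and F13a1, a clotting factor also made by resident macrophages (-1.83), were lower. Spp1 had 685 UMIs against 0 (at least 12.5-fold higher), and Lgals3, a lectin of activated macrophages, stood at 3399 against 254 CPM (log2 ratio 3.74, 2.76 to 4.96).

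Other groups also differed between the libraries. Of 14 inflammatory genes 8 were higher and 1, Nfkbiz, lower. Il1b stood at 2154 against 476 CPM (log2 ratio 2.18, 1.45 to 3.02). Of 13 interferon-response genes 6 were higher and 0 lower, with Irf7 at 504 against 31.7 CPM (1 UMI, log2 ratio 3.99, 1.50 to 9.30). Of 14 glycolysis and hypoxia genes 8 were higher and 0 lower, with Gapdh at 2740 against 666 CPM (log2 ratio 2.04, 1.42 to 2.74). Of 12 immediate early genes 9 were lower and 0 higher, with Fos at 1712 against 6188 CPM (log2 ratio -1.85, -2.08 to -1.62). Lyz2, at 10447 against 8695 CPM, differed by a log2 ratio of 0.26 (0.09 to 0.44). Of 14 chemokine genes 1 was higher and 3 lower, and Cxcl2 stood at 10466 against 6474 CPM (log2 ratio 0.69). Of 8 contractile genes 1, Mylpf, was higher and 1, Atp2a1, lower, with a median log2 ratio of 0.11 beside 0.09 for all genes.

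**Figure D5:**
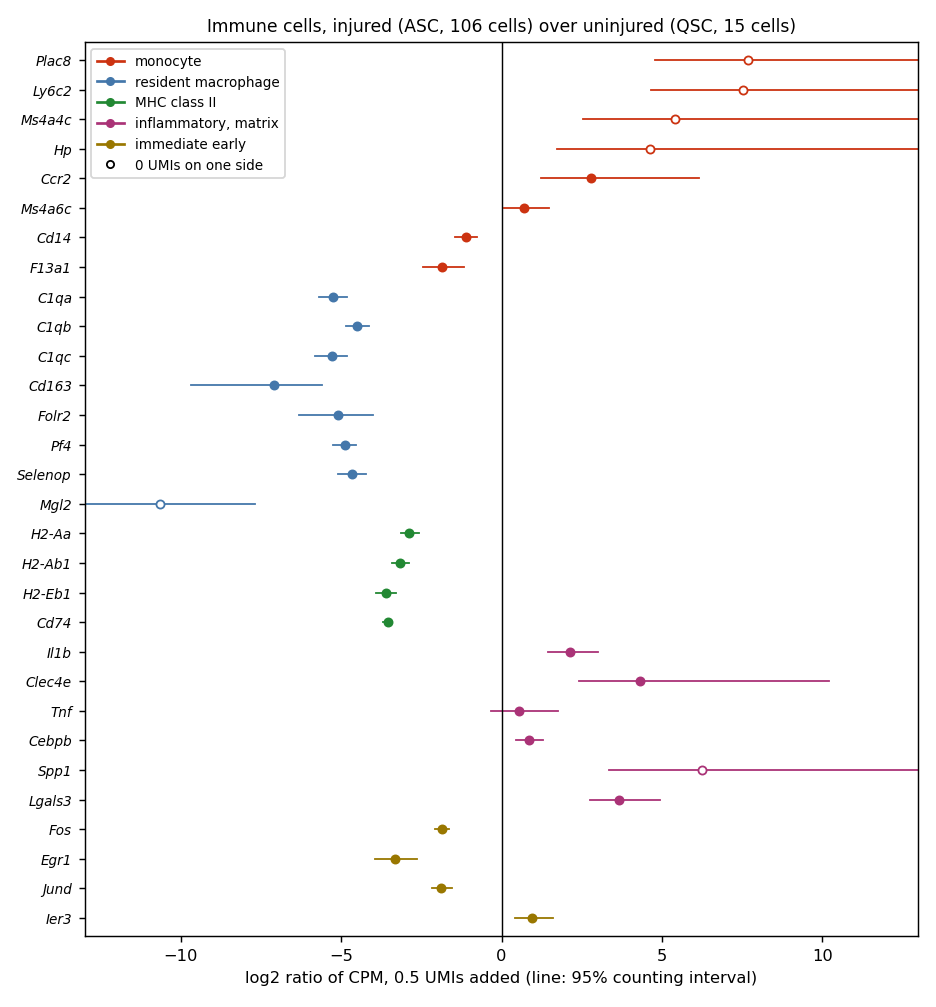
Points are log2 ratios of CPM in 106 ASC over 15 QSC immune cells, with 0.5 UMIs added, and lines are 95% counting intervals cut at the axis limits. Open points have 0 UMIs on one side. The 8 resident macrophage genes shown all lie left of 0, and Plac8 and Ly6c2 lie right of it.

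The 5 C1q-high ASC cells, compared after the values were seen, were close in sequenced total to the QSC immune cells (31685 and 31511 UMIs). They were chosen for C1q RNA but held less of it than the QSC cells, with C1qa at 2083 against 4506 CPM (log2 ratio -1.11, -1.56 to -0.68), C1qb at 3093 against 4602 CPM (-0.57, -0.96 to -0.19) and C1qc at 1483 against 3523 CPM (-1.25, -1.77 to -0.74). MHC class II RNA was scarce in them, with 0 against 150 UMIs of H2-Aa (at least 50.3-fold lower) and 3 against 700 UMIs of Cd74 (log2 ratio -7.87, -10.16 to -6.32). Cd163 had 0 against 26 UMIs, at least 8.71-fold lower. Unlike the QSC cells they carried Ly6c2 and Plac8 RNA, with 24 UMIs of Ly6c2 in 4 of the 5 cells and 20 of Plac8 in 5 of 5, against 0 and 0. These amounts were 757 and 631 CPM, beside 23.9 and 10.2 CPM in the other contractile-low cells of their library. The source of this RNA in the 5 cells was not tested. Other monocyte genes went both ways. Ms4a4c (25 against 0 UMIs), Ms4a6c (34 against 19) and Ccr2 (8 against 2) had more UMIs than in the QSC cells. Cd14 (16 against 78) and F13a1 (6 against 26) had fewer. Ccl7, a chemokine for monocytes, stood at 5586 against 889 CPM (log2 ratio 2.65, 2.07 to 3.28), and at 3245 CPM without the cell that held 115 of its 177 UMIs (1.87, 1.20 to 2.57). Single cells set other values. For Hmox1, which degrades haem, 35 of 40 UMIs lay in 1 cell, and the log2 ratio of 1.99 turned to -0.57 (-2.47 to 1.11) without it. For Apoe, 213 of 234 UMIs lay in 1 cell, and the level moved from 7385 to 898 CPM without it, against 27800 CPM in the QSC cells.

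Muscle RNA was low but not absent in the immune cells. Pax7, Myf5, Myod1 and Myog together had 41 UMIs in 29 of the 106 cells, with at most 7 in 1 cell, which is 71.5 CPM (51.3 to 97.0) against 1452 CPM in the other contractile-low cells. The 29 cells had a median of 7205 UMIs, the other 77 a median of 4279. The neutrophil-like cells had 0 such UMIs in 13 cells, which allows up to 153 CPM and so does not set them apart from the other immune cells. The highest share of the 15 muscle genes in any immune cell was 0.222%, against a median of 0.324% in the other contractile-low cells. The part of free RNA or of droplets with 2 cells in these counts was not tested.

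Several limits bear on these numbers. Limiting cells to those with at least 1000 genes, or to under 2% contractile UMIs, left 0 neutrophil-like cells. With the mitochondrial limit of 1% that the study used, 32 immune cells remained and 12 of them were neutrophil-like (37.5%), and no QSC immune cell remained.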

How the data were processed

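Single-cell RNA was captured with the 10x Genomics 3′ kit. The authors deposited whole-number UMI counts per gene and cell for each of 2 libraries, not normalized (9059807 UMIs for ASC, 1346020 for QSC). The file headers name Cell Ranger 6.0.2, whereas the submitters' processing notes name Cell Ranger 7.1.0, with R 4.1.2 and Seurat 4.1.0. Genome build and strand setting are not given in the sources used here. Gene positions are from GENCODE M21, which held 99.6% of the 32285 feature identifiers.

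Cells were kept with at least 500 genes and at most 10% mitochondrial UMIs. Each group had 1 library, so UMIs were summed over cells and given as CPM with exact Poisson 95% intervals, ratios with exact conditional binomial intervals, and shares with Clopper-Pearson intervals. These cover counting error only. Ratios are without added counts unless stated, and list medians have 0.5 UMIs added. Groups at 0 were set to 3 UMIs for bounds. Genes with at least 20 UMIs over both groups were compared. Shares of cells with a UMI used cells thinned to 1200 UMIs. Cells were clustered on 1000 variable genes, 10 components and 15 neighbours at resolution 0.6. No doublets were removed, since Scrublet marked 3 of 1468 cells (0.204%) and 0 of 106 immune cells, too few to serve. The comparison procedure was run on simulated Poisson counts without spread between cells. That is what the intervals assume, so this checks the calculation only and not its use on cells that differ.

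The members and the 32 gene lists were chosen with earlier results of these data known, and the sets by Ly6c2 plus Plac8, MHC class II and lymphoid genes after their values were seen. Named genes came from these lists, the 15 most abundant genes, the 15 highest and lowest ratios (10 in the other comparisons) above a minimum of 200 or 500 CPM, and the 5 leading genes of each cluster. Alternatives varied the cell limits, the scaling, the weight of each cell and the count filter. Analyses used Python 3.11.15 with numpy 2.4.6, scipy 1.17.1, pandas 2.3.3, scanpy 1.11.5 and matplotlib 3.10.9.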

Additional observations from a re-analysis of the deposited data

How the results depend on the processing

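Each group was 1 library, so nothing here measures variation between animals. No paired analysis was possible because each group had 1 library and no result came from a test across samples. Of 101 alternative values, 73 stayed within 1.5 times the count, or within the interval of the share, and 28 moved beyond it. With the mitochondrial share at most 1%, 32 immune cells remained, 37.5% of them neutrophil-like, with 564 genes higher and 893 lower than in other contractile-low cells, and 111 genes higher in neutrophil-like than in other immune cells. No QSC immune cell remained, so that comparison gave no value. With the contractile share under 2%, 34 immune cells remained, 0% neutrophil-like, with 1446 genes lower than in other contractile-low cells and 129 lower in ASC than in QSC immune cells. With at least 1000 genes, 0% were neutrophil-like, and 125 genes were higher in ASC than in QSC immune cells. The neutrophil-like comparison gave no value under these last settings. With the median log2 ratio set to 0, 1442 genes were lower in immune than in other contractile-low cells. With each cell weighted equally (1 CPM added), 1205 genes were higher and 492 lower in ASC than in QSC immune cells, and 398 higher and 1383 lower in neutrophil-like cells. Without a filter on low counts, 560 genes were lower in ASC than in QSC immune cells and 319 higher in neutrophil-like cells, against 115 and 134 with at least 50 UMIs. With C1q-high ASC cells only, chosen after seeing the data, 107 genes were higher and 67 lower than in QSC immune cells. The causes of these changes were not tested. The values without the cells richest in a gene were also chosen after seeing the data.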
